A study of Mus musculus with 15 samples.

Results

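Microglia were followed here through 9 genes in mRNA-seq libraries of mouse dorsal forebrain at embryonic day 18 (E18). The genes were P2ry12, Cx3cr1, Csf1r, C1qa, C1qb, C1qc, Tmem119, Trem2 and Aif1, taken by name out of 53337 genes in the table. The tissue came from C57BL/6J offspring of dams that carried a subcutaneous minipump delivering arginine vasopressin (AVP), a treatment used to model preeclampsia, or saline, which the sample labels call vehicle. The 15 libraries, each from 1 brain, comprised 8 males (4 AVP, 4 saline) and 7 females (3 AVP, 4 saline). Each library of a group came from its own litter according to the study, the labels do not tie brothers to sisters, and a further AVP female had been left out by the authors. All groups shared the strain, the age, the brain region named and the pump, and every brain was exposed through its mother. Levels of markers of neighbouring tissue, given below, differed widely between the dissected libraries. Replicate numbers below only name the libraries of a group.

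Microglia are the macrophages that live inside brain tissue. They come from yolk sac progenitors that enter the embryonic brain early, and they later prune synapses and clear dying cells. P2ry12, a receptor for ADP released by damaged cells, and Tmem119, a membrane protein, are the members most restricted to microglia among brain cells. Csf1r, the receptor that microglia need to survive, Cx3cr1, the receptor for the neuronal chemokine fractalkine, Trem2, a lipid-sensing receptor, Aif1, the actin-binding protein known as IBA1, and the 3 chains of complement C1q are shared to varying degree with other macrophages, including those at the borders of the brain.

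Levels were expressed as TPM, a measure of transcript abundance that is scaled to transcript length and to the library total, so levels of different genes can be compared. The depth of each library is unknown from such values, and no counting error can be attached to them. In bulk tissue, fewer microglia and less RNA per microglial cell cannot be told apart. Sex was checked with Xist, which is transcribed from the inactive X chromosome, and with 4 genes of the Y chromosome (Eif2s3y, Kdm5d, Ddx3y and Uty), and 14 of 15 libraries matched. The exception was labelled saline male 3, where Xist reached 266 TPM and the Y-linked genes at 0.489 TPM in sum. Female libraries held 174 to 294 TPM of Xist, and the other males held 102 to 155 TPM over the Y-linked genes. It was kept under its label, and the main comparisons are also given without it.

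The C1q genes lie side by side within 18675 bases of chromosome 4 (GRCm38), all on the minus strand. C1qb (ENSMUSG00000036905) spans 136880129 to 136886187, C1qc (ENSMUSG00000036896) 136889804 to 136893065 and C1qa (ENSMUSG00000036887) 136895917 to 136898803. The stretches just upstream of C1qb and C1qc are shown, and no promoter sequence was given for C1qa. They were taken from RefSeq (GRCm38.p6), read 5′ to 3′ on the minus strand at chr4:136886201-136886300 and chr4:136893066-136893164, and capitals mark letters that match motifs of ETS factors such as PU.1, the transcription factor that macrophages and microglia require, the short core in C1qb and the longer motif that contains it in C1qc, both defined below.
C1qb: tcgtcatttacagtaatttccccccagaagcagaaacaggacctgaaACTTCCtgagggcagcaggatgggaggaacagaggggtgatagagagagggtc
C1qc: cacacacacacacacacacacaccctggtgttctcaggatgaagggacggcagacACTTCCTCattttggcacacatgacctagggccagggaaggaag
Promoter windows, from 250 bases before to 50 bases after a start, were given for 6 of the 9 members. The short core GGAAGT, searched on both strands (ACTTCC on the other), was in the windows of 3 of these 6, P2ry12, C1qb and C1qc, and in 23.8% of all 32851 windows. The longer GAGGAAGT (ACTTCCTC on the other strand), which contains the short core, was in 1 of 6, C1qc, and in 3.2% of all windows. These matches describe letters in a window, not binding.

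The other members lie apart, on chromosome 3 (P2ry12, ENSMUSG00000036353, 59216272 to 59262871, minus strand), chromosome 9 (Cx3cr1, ENSMUSG00000052336, 119901616 to 120069879, minus), chromosome 18 (Csf1r, ENSMUSG00000024621, 61100598 to 61132149, plus) and chromosome 5 (Tmem119, ENSMUSG00000054675, 113793729 to 113800516, minus). Chromosome 17 holds Trem2 (ENSMUSG00000023992, 48346401 to 48354147, plus) and Aif1 (ENSMUSG00000024397, 35170991 to 35176068, minus).

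All 9 genes were detected in all 15 libraries, and together they made up between 44.6 and 115 TPM. C1qb was the most abundant, at 18.8 ± 4.51 TPM (mean ± SD, n = 15), and was above C1qc in 15 of 15 libraries. C1qc (14.8 ± 3.66 TPM) and C1qa (14.7 ± 3.86 TPM) did not differ in order, C1qc being the higher in 7 of 15. A gap followed, with C1qa above Csf1r in 15 of 15 libraries by 1.03 ± 0.20 on the log2 scale. Csf1r (7.18 ± 1.83 TPM) was in turn above Cx3cr1 (4.59 ± 0.955 TPM) in 15 of 15. Below these the order was not stable. Cx3cr1 exceeded Aif1 (4.29 ± 1.52 TPM) in 10 of 15 libraries, Aif1 exceeded P2ry12 (3.3 ± 0.875 TPM) in 11 of 15, and P2ry12 exceeded Trem2 (2.9 ± 0.668 TPM) in 9 of 15. Tmem119 was the lowest at 2.03 ± 0.619 TPM and was below Trem2 in 14 of 15. The C1q chains thus outranked the receptors, and the members most restricted to microglia were among the lowest. The members varied between libraries by 2.11-fold (Trem2) to 3.06-fold (Tmem119) from lowest to highest.

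C1q protein is built from equal numbers of A, B and C chains. Per library, the ratio of C1qa to C1qc TPM was 0.988 ± 0.117 (n = 15), that of C1qa to C1qb was 0.779 ± 0.0901, and that of C1qb to C1qc was 1.27 ± 0.103. The C1qb to C1qc ratio ranged from 1.1 to 1.53 while the level of C1qb itself ranged from 11.9 to 29.9 TPM.

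**Figure D1:**
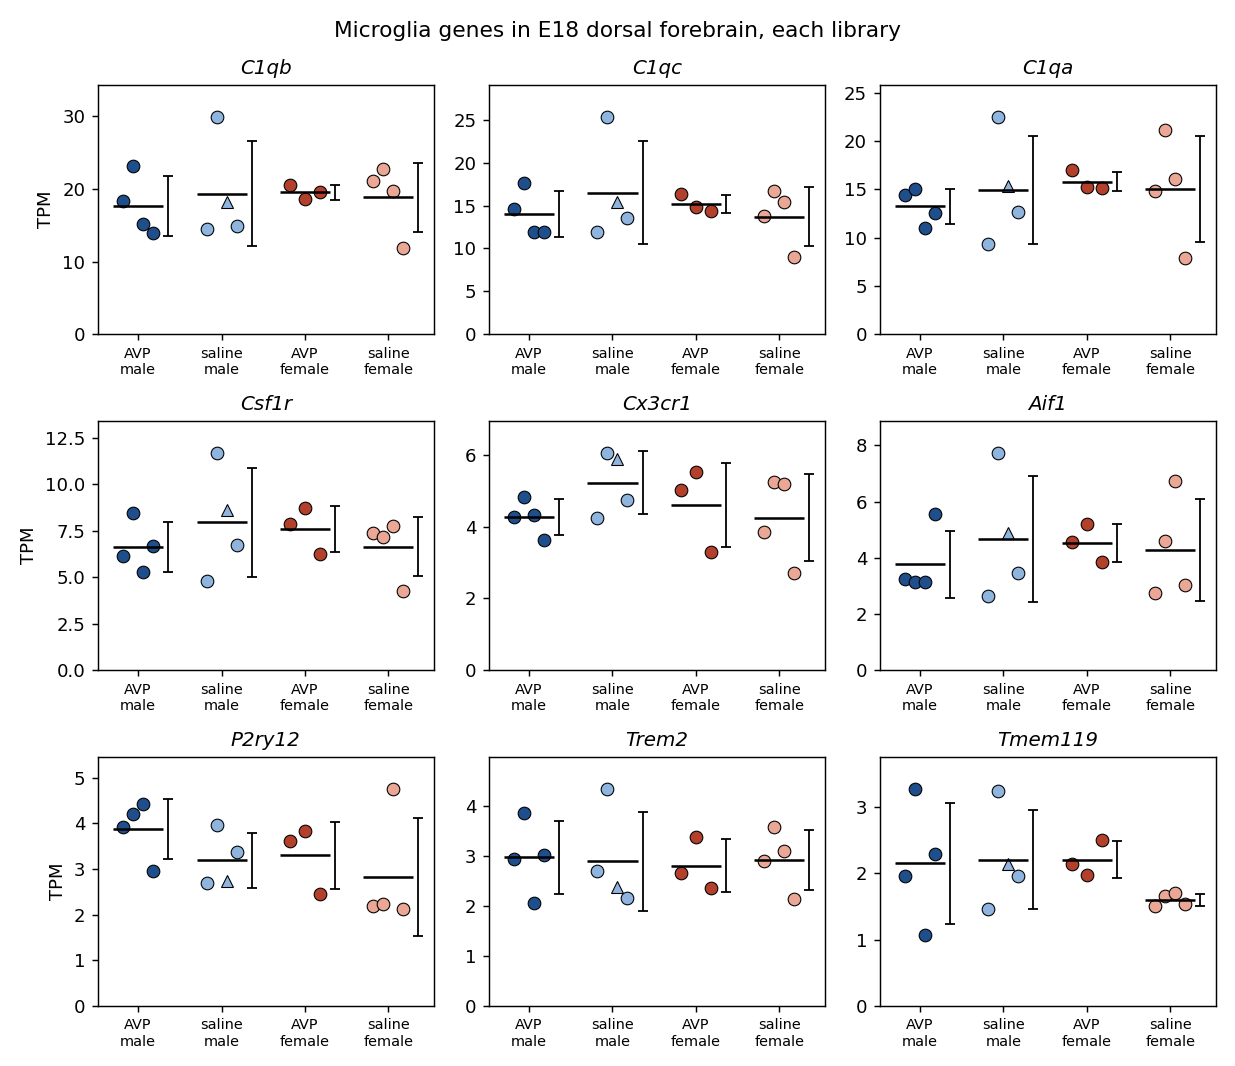
TPM of each microglia gene (vertical axes, each starting at 0) in the 4 groups (horizontal axes). Each point is 1 library, the bar is the group mean, the bracket beside it is the SD, and the triangle is the library labelled saline male 3. Saline male 2 is the highest saline male for all 9 genes, saline female 4 is the lowest of all libraries for 6, and the AVP and saline points of a sex overlap for every gene except Tmem119 in females.

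AVP and saline were then compared within each sex, the design of the study. In neither sex did a microglia gene pass the threshold, an adjusted p under 0.05 in limma's test on log2(TPM + 0.5) with Benjamini-Hochberg adjustment over all genes tested. In males 0 of 9 were called, where 0.00655% of the 15271 genes tested were called, and in females 0 of 9, where 0% of 15132 were. The unadjusted p was above 0.05 for all 9 in both sexes, while 13.5% of all genes tested in males and 4.51% in females were under 0.05. Each fold change below is on the log2(TPM + 0.5) scale, which understates the change of low genes, and AVP and saline libraries of a sex are given in replicate order.

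Among the receptors, P2ry12 was listed at 3.93, 4.2, 4.44 and 2.95 TPM in AVP males and at 2.69, 3.97, 2.73 and 3.37 TPM in saline males. Of the AVP males, 3 lay above the saline median, but the groups overlapped. The log2 fold change was 0.25 ± 0.17 (SE), with a 95% interval of -0.14 to 0.64 (adjusted p = 0.531, limma). AVP females held 3.61, 3.84 and 2.46 TPM, and saline females 2.18, 2.24, 4.75 and 2.13 TPM. Saline female 3 held the highest P2ry12 level of all libraries and the other 3 saline females the lowest. The log2 fold change in females was 0.24 ± 0.30 (-0.43 to 0.91, adjusted p = 0.999).

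Cx3cr1 stood at 4.27, 4.85, 4.34 and 3.64 TPM in AVP males and at 4.23, 6.06, 5.9 and 4.74 TPM in saline males. All 4 AVP males were below the saline median, although saline male 1 was lower than 3 of them. Its log2 fold change of -0.26 ± 0.15 came closest to the threshold among the members in males (unadjusted p = 0.121, adjusted p = 0.463, limma). Without saline male 3 the value was -0.20 ± 0.17. The females held 5.02, 5.53 and 3.3 TPM of Cx3cr1 after AVP, and 3.86, 5.25, 5.19 and 2.7 TPM after saline. This was a log2 fold change of 0.12 ± 0.27 (adjusted p = 0.999, limma).

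Csf1r was measured at 6.13, 8.44, 5.28 and 6.69 TPM in AVP males and at 4.79, 11.7, 8.59 and 6.74 TPM in saline males. The saline males covered the whole AVP range, from the second lowest to the highest of the 15 libraries. AVP females had 7.87, 8.7 and 6.24 TPM and saline females 7.37, 7.17, 7.75 and 4.28 TPM, where saline female 4 stood apart below. The log2 fold changes were -0.20 ± 0.25 in males (-0.76 to 0.37, adjusted p = 0.753, limma) and 0.20 ± 0.23 in females (-0.32 to 0.73, adjusted p = 0.999).

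Trem2 showed the smallest differences. It was at 2.94, 3.86, 2.05 and 3.01 TPM in AVP males and at 2.7, 4.33, 2.38 and 2.15 TPM in saline males, with a log2 fold change of 0.05 ± 0.24. AVP females were at 2.66, 3.38 and 2.36 TPM and saline females at 2.89, 3.58, 3.09 and 2.14 TPM, and the log2 fold change was -0.05 ± 0.22. The 95% intervals still allow a fold of 0.715 to 1.49 in males and of 0.686 to 1.37 in females. Tyrobp, the adaptor (DAP12) through which Trem2 signals, ranged from 10.1 to 26.6 TPM, and the Trem2 to Tyrobp ratio was 0.181 ± 0.0267 over the 15 libraries.

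Of the complement genes, C1qa was at 14.4, 15, 11 and 12.6 TPM in AVP males and at 9.29, 22.5, 15.4 and 12.6 TPM in saline males. AVP females were at 17, 15.3 and 15.2 TPM and saline females at 14.8, 21.2, 16.1 and 7.87 TPM. The AVP libraries lay inside the saline range in both sexes. C1qb was at 18.4, 23.2, 15.2 and 13.9 TPM in AVP males, 14.5, 29.9, 18.1 and 14.9 TPM in saline males, 20.6, 18.6 and 19.5 TPM in AVP females and 21, 22.7, 19.7 and 11.9 TPM in saline females. C1qc was at 14.6, 17.6, 11.9 and 11.9 TPM in AVP males, 11.9, 25.3, 15.4 and 13.5 TPM in saline males, 16.4, 14.8 and 14.3 TPM in AVP females and 13.7, 16.7, 15.4 and 8.96 TPM in saline females. All 3 chains were highest in saline male 2 and lowest in saline female 4. The log2 fold changes in males were -0.11 ± 0.24 for C1qa, -0.09 ± 0.24 for C1qb and -0.19 ± 0.23 for C1qc, and in females 0.15 ± 0.29, 0.09 ± 0.21 and 0.18 ± 0.21.

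Aif1 was at 3.23, 3.12, 3.12 and 5.56 TPM in AVP males and at 2.62, 7.72, 4.89 and 3.45 TPM in saline males. Only AVP male 4 was above the saline median, and the log2 fold change was -0.22 ± 0.31 (adjusted p = 0.776, limma). Aif1 in AVP females was at 4.56, 5.2 and 3.85 TPM and in saline females at 2.73, 4.6, 6.72 and 3.03 TPM (log2 fold change 0.15 ± 0.29). Its SE in males was the largest of the 9 members in that comparison.

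Tmem119 was the member whose groups came apart in females. The AVP females held 2.14, 1.97 and 2.51 TPM and the saline females 1.51, 1.66, 1.7 and 1.54 TPM, so every AVP female was above every saline female. The log2 fold change was 0.36 ± 0.19 (-0.06 to 0.79), with an unadjusted p of 0.0865 and an adjusted p of 0.999 in limma. An exact two-sided permutation test gave p = 0.0286, which is the smallest value that 3 against 4 libraries can give, and it was 1 of 18 such tests over the 9 genes and both sexes. Groups did not overlap for 5.55% of all genes tested in females, and AVP was the higher for 2.78%. Saline male 3, which carried female levels of Xist, held 2.15 TPM, inside the AVP female range, and the log2 fold change with it counted among the saline females was 0.29 ± 0.18. AVP males held 1.96, 3.27, 1.07 and 2.3 TPM of Tmem119 and saline males 1.47, 3.25, 2.15 and 1.97 TPM, and the groups overlapped (log2 fold change -0.06 ± 0.30). For males, 7.27% of all genes tested had groups that did not overlap (0.733% with AVP higher), and 0 of the 9 members did. The exact permutation p was 0.2 or higher for the 9 members in males and 0.457 or higher for the other 8 in females, in tests that could reach 0.0286.

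**Figure D2:**
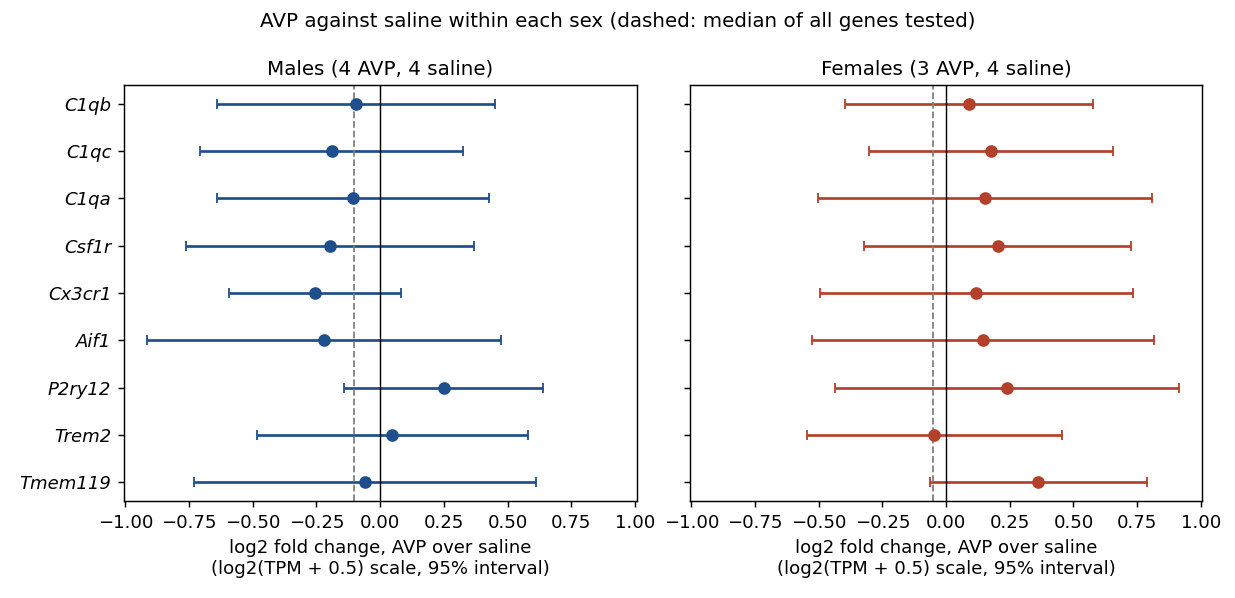
Log2 fold change of AVP over saline for each microglia gene (points, horizontal axes) with its 95% interval from limma (bars), in males on the left and females on the right. The solid line is no change, the dashed line is the median of all genes tested (-0.10 in males, -0.05 in females), and all 18 intervals include 0.

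As a list, 7 of 9 members were lower with AVP in males and 8 of 9 were higher with AVP in females, without any of them passing the test. The median log2 fold change of the members was -0.11 in males, where the median of all genes tested was -0.10, and 0.15 in females, where that of all genes was -0.05. Median-of-ratios scaling moved the median of all genes in males from -0.10 to -0.01, and the median of the members with it to -0.01. Under both scalings the male median of the members thus lay beside that of all genes. Their directions also hung on single libraries. Without saline male 2 the male median of the members became 0.11, with 6 of the 7 lower genes changing sign, and without saline female 4 the female median became -0.01, with C1qa, C1qb, C1qc and Cx3cr1 changing sign. Without saline male 3 the male median was -0.10 and 0 of 9 members were called, with log2 fold changes from -0.20 (C1qc) to 0.19 (P2ry12), and Trem2 turned from 0.05 to -0.02. With that library counted as a female the female median was 0.13 and 0 of 9 were called. Of the companion genes below that were tested in these fits, 0 of 140 and 0 of 149 were called.

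The interaction of treatment and sex, tested over all 15 libraries, called 0 of 9 members, where 0% of the 15078 genes tested were called. The female effect minus the male effect was above 0 for 7 of 9, from -0.09 for Trem2 to 0.42 for Tmem119, with SEs of 0.30 to 0.45 (adjusted p of 0.896 or higher, limma). Thus the opposite signs in the sexes were not shown to differ. Taking both sexes together, AVP against saline called 0 of 9 members and 0% of all genes, and P2ry12, with 0.24 ± 0.16, was the member farthest from 0. Females against males likewise called 0 of 9 members, against 0% of all genes, with log2 differences between -0.21 for P2ry12 and 0.11 for C1qa. With saline male 3 kept as a male, this fit called no sex-linked gene either, so its lack of calls says little about the members. Without that library 7 of 15164 genes tested were called between the sexes, and 2 of 15078 with it counted as a female. In all 3 of these comparisons 0 of 9 members had an unadjusted p under 0.05, and 0 of 9 were called without saline male 3. Brothers and sisters came from shared litters, which the labels do not identify, so these 3 fits treat libraries as independent that may share a dam.

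The libraries also fall into 2 runs of numbers in the sample descriptions, 1 to 8 and 13 to 20, whose meaning the labels do not give. Within the first run the median difference of the members between AVP and saline was -0.02 in males (2 against 2 libraries) and 0.11 in females (1 against 2). Within the second it was -0.23 in males and 0.30 in females (2 against 2 each).

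For most of the 9 genes the highest and the lowest of the 15 libraries were both saline libraries, although those of Tmem119 were AVP male 2 and AVP male 3, and Trem2 was lowest in AVP male 3. Saline male 2 held the highest level of 7 of the 9 genes and summed to 115 TPM over the 9, while saline female 4 held the lowest level of 6 and summed to 44.6 TPM. The summed level averaged 68.6 ± 11 TPM in AVP males (n = 4), 76.9 ± 26.6 in saline males (n = 4), 75.6 ± 5.25 in AVP females (n = 3) and 70.1 ± 18.1 in saline females (n = 4). Saline male 1, at 54.2 TPM, was the second lowest, with 0 of 9 genes above their own mean over the 15 libraries.

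**Figure D3:**
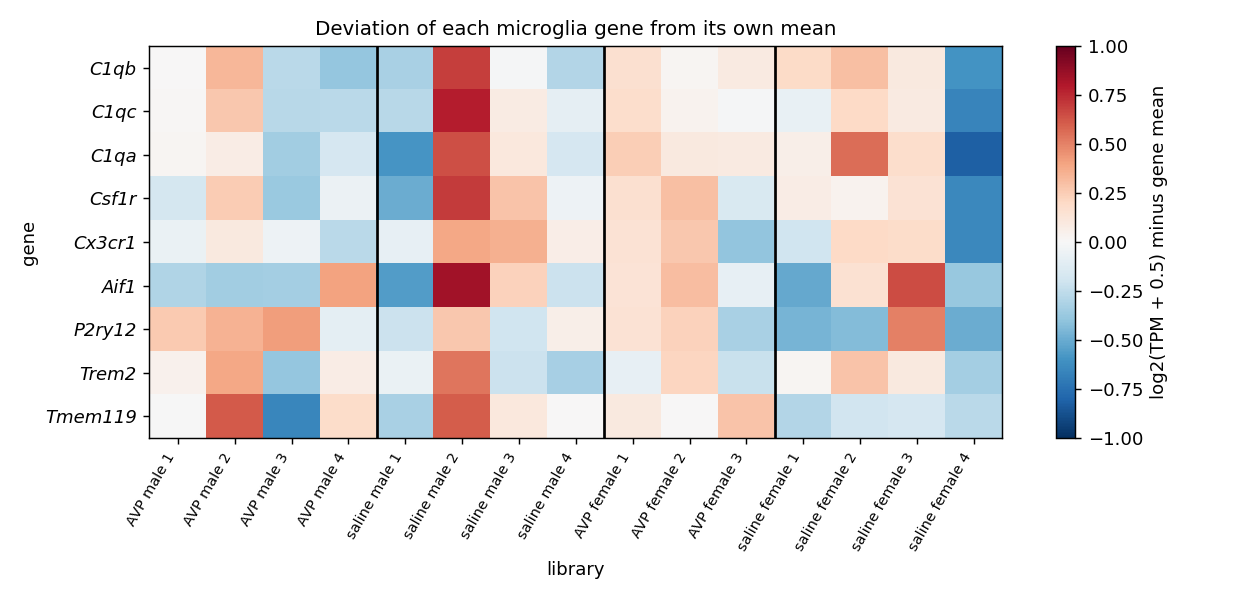
Log2(TPM + 0.5) of each microglia gene (rows, ordered by mean TPM) minus that gene's mean over the 15 libraries, for each library (columns; vertical lines part the groups). Red is above and blue below the gene's mean. Saline male 2 is above the mean for 9 of 9 genes, and saline male 1 and saline female 4 are above it for 0 of 9.

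Between members, Pearson's r over the 15 libraries was positive for all 36 pairs, with a median of 0.61 (Spearman's rho 0.56) and a range of 0.20 to 0.94. These values are a description, since all genes of a library share its RNA and its scaling to a fixed total. Without saline male 2 and saline female 4 the median r was 0.39 and the lowest -0.14. With each group's mean taken out first, the median was 0.65. With saline male 3 left out and the group means kept, it was also 0.65. The C1q genes were the most alike, C1qb and C1qc reaching the 0.94. Against the mean of the other 8 members, each gene standardised, C1qc had r = 0.95, Csf1r 0.93, C1qa 0.86, C1qb 0.84, Cx3cr1 0.74, Trem2 0.74, Aif1 0.65 and Tmem119 0.60. P2ry12 followed the rest least, with r = 0.39, and 0.11 without the 2 libraries farthest from the median, saline male 2 and saline female 4.

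Of the 15016 other genes at 1 TPM or more in at least 50% of the libraries, Adgre1, the macrophage surface protein F4/80, was most like the standardised mean of the 9 members (Pearson's r = 0.96, Spearman's rho = 0.88, and r = 0.90 without the same 2 libraries). Its level was 2.25 TPM on average, from 1.09 to 4.32. The next 9 were Csrp1 (r = 0.92), Laptm5 (0.90), Fkbp9 (0.89), Stom (0.89), Unc93b1 (0.89), Itm2b (0.89), Sdc2 (0.88), Cavin2 (0.87) and P4hb (0.87). Laptm5, a lysosomal protein of immune cells, and Unc93b1, which carries Toll-like receptors to endosomes, were also on the list of 25 other microglia genes. Others, such as P4hb, a protein-folding enzyme of the endoplasmic reticulum at 124 TPM, are made by most cells.

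The 25 other microglia genes followed the members. The standardised mean of the 19 that were at 1 TPM or more in at least 50% of the libraries had r = 0.95 with that of the members (rho = 0.86, and 0.87 without the same 2 libraries). In males 20 of the 25 were tested and 0 called, with 1 at an unadjusted p under 0.05, where 13.5% of all genes tested were, and a median log2 fold change of -0.13. That gene was Cd68, a lysosomal glycoprotein of phagocytes (-0.55 ± 0.14, adjusted p = 0.304, limma). In females 22 were tested, 0 were called, 0 had an unadjusted p under 0.05, and the median was 0.07. Cd68 did not follow the members, at r = -0.22.

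Around the receptors, ligands and partners were also without a call. Csf1 and Il34, the CSF1R ligands, were at 6.02 ± 1.31 and 4.66 ± 1.25 TPM over the 15 libraries, and Cx3cl1, the neuronal ligand of Cx3cr1, at 14.9 ± 3.64 TPM. In females Csf1 was higher in all 3 AVP libraries (8.06, 6.58 and 7.36 TPM) than in the 4 saline libraries (6.05, 5.32, 5.32 and 4.07 TPM), a log2 fold change of 0.47 ± 0.18 with an unadjusted p of 0.0277 and an adjusted p of 0.999 in limma. Of all genes tested in females, 2.78% had groups that did not overlap with AVP higher, and 4.51% had an unadjusted p under 0.05. In males the log2 fold change of Csf1 was -0.16 ± 0.22, that of Il34 0.06 ± 0.26 and that of Cx3cl1 -0.06 ± 0.22. For Il34 and Cx3cl1 the values in females were 0.33 ± 0.24 and -0.38 ± 0.28. Of the 10 genes of Trem2 and DAP12 signalling, 6 were tested in each sex and 0 called (medians -0.01 in males and 0.14 in females). Tyrobp itself had log2 fold changes of 0.00 ± 0.26 and 0.15 ± 0.20, and Clu, a lipoprotein that Trem2 binds, had -0.32 ± 0.14 in males.

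Among 22 other genes of the complement system, 14 were tested in males and 15 in females, and 0 were called in either sex (medians -0.11 and -0.08). Sez6, a neuronal protein with complement-control domains, had a log2 fold change of -0.39 ± 0.11 in males (unadjusted p = 0.00781, adjusted p = 0.304, limma). In females Serping1, the C1 inhibitor, had 0.56 ± 0.19 (unadjusted p = 0.0196, adjusted p = 0.999). Of 13 purinergic partners of P2ry12, 7 were tested in each sex and 0 called, with medians of -0.29 in males and -0.17 in females. Slc29a1, a nucleoside transporter, had the smallest unadjusted p of these in both sexes (-0.42 ± 0.11 in males, -0.28 ± 0.13 in females).

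Of 16 genes of TGF-beta signalling and microglia identity, 14 were tested in each sex and 0 called (medians -0.18 in males and -0.04 in females). Tgfb1, the cytokine that sets the microglial programme, had -0.32 ± 0.20 in males and 0.26 ± 0.23 in females, Nrros, which presents it on microglia, -0.43 ± 0.19 in males, and Spi1, which encodes PU.1, 0.43 ± 0.19 in females. Of 13 genes of activated perinatal microglia, 10 were tested in each sex and 0 called (medians -0.05 and 0.02). Lpl, a lipase, had -0.50 ± 0.17 in males and -0.49 ± 0.26 in females. Lgals3, a lectin, had -0.67 ± 0.22 in females and -0.27 ± 0.32 in males. Cd63, an endosomal tetraspanin, had 0.38 ± 0.12 in females and 0.06 ± 0.16 in males. Most inflammatory cytokines and their regulators were scarce, with 10 of 18 under 1 TPM in all libraries, although Il18 was at 10.4 to 17.8 TPM and Nfkbia at 19.7 to 29.4 TPM. In males 4 of the list were tested and in females 3, and 0 were called (medians -0.15 and -0.14).

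Other cells of the dissection moved with the same libraries. Border macrophages, which live in the meninges, around vessels and in the choroid plexus, share Csf1r, the C1q genes and Aif1 with microglia. Of 12 of their genes 7 passed the filter over all libraries, and their standardised mean had r = 0.72 with that of the members (rho = 0.66, and 0.59 without the same 2 libraries). The summed level of the 12 was 42.8 to 81.5 TPM in AVP males, 22 to 87.2 in saline males, 66.4 to 75.9 in AVP females and 33.3 to 45.3 in saline females, and 2 of the 12 were under 1 TPM everywhere. Here the female groups did not overlap, unlike the sum of the 9 microglia genes (69.7 to 79.8 TPM with AVP and 44.6 to 85.2 TPM with saline). Mrc1, the mannose receptor, was at 7.91, 8.5 and 7.72 TPM in AVP females and at 3.83, 3.42, 4.74 and 2.92 TPM in saline females, a log2 fold change of 1.03 ± 0.19 (unadjusted p = 0.000454, adjusted p = 0.998, limma). The study, with a different test, did call Mrc1 in females. Pf4 (1.07 ± 0.27), a chemokine, and Lyve1 (1.01 ± 0.27), a hyaluronan receptor, had values alike, and 5 of the 7 genes tested in females had an unadjusted p under 0.05, where 4.51% of all genes tested had, with 0 called and a median of 1.01. In males 0 of 8 genes tested were called and the median was 0.04. Cd163, a scavenger receptor of these cells, was at 0.937 ± 0.352 TPM over the 15 libraries and was not tested in females.

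Among the members, Tmem119 followed the border macrophage mean (r = 0.81) more than that of the other microglia genes (0.66), as P2ry12 did at low values (0.32 and 0.27), whereas Csf1r (0.78 and 0.97), C1qa (0.65 and 0.90), Trem2 (0.37 and 0.76) and the remaining 4 had the larger r with the other microglia genes. With the lists of neighbouring tissue described below, Tmem119 had r = 0.75 for meningeal fibroblast and 0.62 for red blood cell genes. For endothelial and choroid plexus genes it had 0.53 and 0.39. Cx3cr1 had r = 0.74 with endothelial genes and 0.73 with the other microglia genes, and Csf1r had 0.90 with endothelial genes. The differences between these correlations were not tested. Set against its own mean, the border macrophage list deviated by 0.36 to 0.49 on the log2 scale in AVP females and by -0.71 to -0.24 in saline females, where the microglia genes deviated by -0.08 to 0.16 and by -0.54 to 0.20. The ratio of Csf1r to Mrc1 TPM was 0.942 ± 0.117 in AVP females, 1.78 ± 0.283 in saline females, 1.13 ± 0.178 in AVP males and 1.43 ± 0.452 in saline males.

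**Figure D4:**
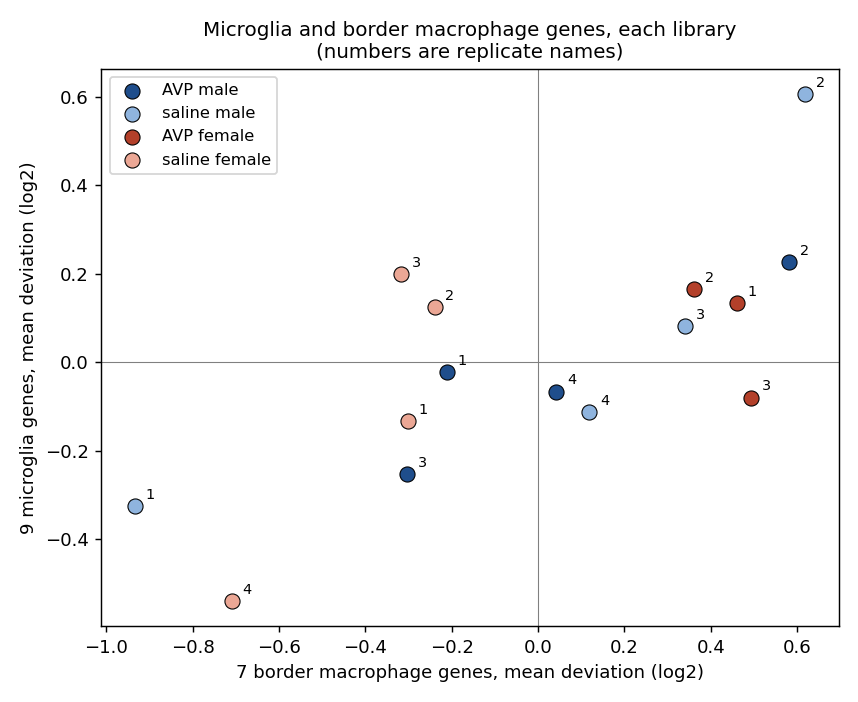
Mean log2 deviation of the 9 microglia genes from their own means (vertical axis) against that of the 7 border macrophage genes that passed the filter (horizontal axis), 1 point per library, with replicate names beside the points. AVP females lie at 0.36 to 0.49 and saline females at -0.71 to -0.24 on the horizontal axis, while on the vertical axis they overlap.

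Among markers of neighbouring tissue, the summed levels of meningeal fibroblast and endothelial genes also did not overlap between the female groups. Meningeal fibroblast genes summed to 232 to 325 TPM in AVP females and 136 to 161 in saline females, against 146 to 289 in AVP males and 70.1 to 307 in saline males. Endothelial genes summed to 226 to 240 TPM in AVP females and 141 to 216 in saline females, against 184 to 212 and 156 to 260 in the males. In females 0 of the 11 meningeal and 0 of the 10 endothelial genes tested were called, with medians of 0.97 and 0.35. Of the meningeal genes, the study's different test did call Col1a1, Col1a2, Dcn, Slc6a13, Postn and Lox in females. Globins and other red blood cell genes summed to 5130 to 13660 TPM in AVP females and 2241 to 5708 in saline females, and choroid plexus genes to 28.7 to 2300 and 9.24 to 969. Both of these sums overlapped between the female groups, although every gene tested of the 2 lists had a log2 fold change above 0 in females. Of 5 red blood cell genes tested, 5 had an unadjusted p under 0.05 in limma, with a median of 1.04. Of 6 choroid plexus genes tested, 2 had, with a median of 1.52. The share of all genes tested in females was 4.51%, and 0 of either list were called. In males the medians were 0.30 and -0.32, with 0 called. In AVP and saline males the red blood cell sums were 3184 to 10050 and 2453 to 7129 TPM, and the choroid plexus sums 10.2 to 645 and 9.59 to 715 TPM. With the members over the 15 libraries, r was 0.79 for endothelial, 0.61 for meningeal, 0.45 for red blood cell and 0.44 for choroid plexus genes, and -0.17 for genes of cortical neurons, 0.50 for those of radial glia and -0.29 for those of the ventral forebrain. Their part in the values of the microglia genes was not tested. Markers of blood monocytes and neutrophils were mostly low, 7 of 12 being under 1 TPM in all libraries, and summed to 3.63 to 23.5 TPM over the 15 libraries. Ccr2, a defining receptor of blood monocytes, did not exceed 0.31 TPM and Mpo, a neutrophil granule enzyme, did not exceed 0.21 TPM. S100a8 and S100a9 of the same list were higher, at 0.421 to 6.31 and 1.23 to 12.7 TPM, both highest in AVP female 3. All 3 genes tested in females had a log2 fold change above 0 (median 0.65), with 0 called. In males the median of 3 tested was -0.19, with 0 called.

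The transcripts behind the gene levels were estimated unevenly. C1qa and C1qb have 1 transcript each in the table, and 1 transcript carried 99.6% of C1qc, 98.3% of Csf1r and 98.2% of Tmem119 on average. For Trem2, Trem2-201 held 72.8% on average, and the intron-retaining Trem2-203 held 5.69% to 22.5% in all libraries. Cx3cr1 was divided between Cx3cr1-201 (39.4% to 99.7% of a library's Cx3cr1) and Cx3cr1-202 (0.325% to 60.6%). Aif1-203 ranged from 0% to 100% and Aif1-201 from 0% to 88.7%, and P2ry12-202 from 14.5% to 100%. For these 3 genes the share of a transcript therefore differed more between libraries than the level of the gene did.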

How the data were processed

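E18 dorsal forebrain mRNA-seq libraries (15) were grouped by the treatment and gender in the labels. According to the study's methods, the authors trimmed reads (Trim Galore 0.4.1, FastQC 0.5.2), quantified GENCODE M16 transcripts (GRCm38, mm10) with kallisto 0.43.1 in stranded, bias-corrected mode and tested with sleuth 0.29.0. The deposited table holds TPM per transcript and library, made by the authors, with no scaling between libraries. It holds no counts, so no count model was run and depth per library is unknown. Transcript TPM were summed to genes with GENCODE M21 (GRCm38), leaving out 404 of 133849 transcripts that had no gene there (0.154% to 0.199% of TPM).

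A gene was tested where 50% or more of the libraries compared held 1 TPM or more of it. The test was limma 3.58.1 (R 4.3.3) on log2(TPM + 0.5), with a trend, two-sided, Benjamini-Hochberg adjusted over all genes, threshold 0.05. Males and females were fitted separately, with treatment as the term. Interaction, treatment and sex were fitted over all libraries. Single members also had exact two-sided permutation tests. The fits were tested on simulated data. The members and the 17 companion lists, which share some genes, were chosen with earlier results of these data known. Named were all members, always Csf1, Il34, Cx3cl1, Tyrobp, Tgfb1, Mrc1, Pf4, Lyve1 and Cd163, up to 3 genes per list by unadjusted p (some are not reported here), the sex-check genes and the 10 genes most like the members; Ccr2, Mpo, Sall1 and Igf1 were chosen after their values were seen. Alternatives were median-of-ratios and quantile scaling, a pseudocount of 0.1 or 1, other filters (none, or 5 TPM everywhere), no trend, the run of numbers as a term, 1 fit over the 4 groups, other uses of saline male 3 and the removal of single libraries. Figures used matplotlib 3.10.9.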

Additional observations from a re-analysis of the deposited data

Results flagged for a closer look

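Of 72 sets of 4 libraries (24 named genes in 3 groups), 9 held a library whose gap to the nearest other exceeded 0.829 of the group's range, where chance gives about 1 in 20, or 3.6. Among the members these were P2ry12 in saline female 3 (4.75 TPM, above the others), Csf1r in saline female 4 (4.28 TPM, below) and Aif1 in AVP male 4 (5.56 TPM, above). Tyrobp in saline female 4 (10.1 TPM, below) and Mrc1 in AVP male 2 (9.31 TPM, above) stood apart in the same way. The other 4 were sex-linked genes in the library labelled saline male 3, namely Xist (266 TPM, above), Ddx3y (0.11 TPM), Kdm5d (0.116 TPM) and Eif2s3y (0.0411 TPM), the last 3 below the other saline males.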

How the results depend on the processing

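In 106 alternative fits over the 5 comparisons, 0 members were called, and the smallest adjusted p of a member was 0.281. At 5 TPM or more in every library only the 3 C1q genes were tested. An unadjusted p under 0.05 arose in 4 of them: P2ry12 in males with quantile normalization (0.0467), over both sexes (0.0179) and between the sexes (0.0256) without saline female 3, and Tmem119 in females without limma's trend (0.0132). A fit of males without saline males 1 and 2, chosen after seeing the data, called 0 members. Median-of-ratios scaling turned the log2 fold change in males to 0.0067 for C1qb and 0.022 for Tmem119, and quantile normalization to 0.022 for C1qa, 0.046 for C1qb and 0.094 for Tmem119. In females, saline male 3 counted as a female, also chosen after seeing the data, gave 0.0010 for Trem2. The cause was not tested.

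Leaving out 1 library at a time gave a median over the members of -0.30 to 0.11 in males and -0.01 to 0.25 in females. In males the log2 fold change ranged from -0.43 to 0.035 for Aif1, -0.30 to 0.11 for C1qa, -0.23 to 0.13 for C1qb, -0.32 to 0.030 for C1qc, -0.40 to 0.0016 for Csf1r, -0.25 to 0.17 for Tmem119 and -0.071 to 0.23 for Trem2. In females it ranged from -0.016 to 0.37 for Aif1, -0.12 to 0.34 for C1qa, -0.11 to 0.19 for C1qb, -0.0087 to 0.28 for C1qc, -0.058 to 0.32 for Cx3cr1 and -0.17 to 0.051 for Trem2. P2ry12 (0.18 to 0.36) and Cx3cr1 (-0.34 to -0.19) in males, and P2ry12 (0.13 to 0.48), Csf1r (0.02 to 0.33) and Tmem119 (0.28 to 0.43) in females, kept their sign. No paired analysis was possible because the labels give no replicate number shared between groups. With no counts, what depth limits could not be worked out.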

Other observations

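Sall1, a transcription factor of microglia that neural progenitors of the forebrain also express, and Igf1, a growth factor, stood apart from the other genes on the microglia lists. Both were chosen after their values were seen. Sall1 was at 24.3 TPM in AVP female 2 and 16.5 TPM in saline female 4, against 6.24 to 9.48 TPM in the other 13 libraries. Igf1 was at 22.3 and 14.9 TPM in these libraries, against 0.881 to 2.84 TPM in the others. Saline female 4 was the library with the lowest summed level of the 9 microglia genes, 44.6 TPM, and AVP female 2, at 77.3 TPM, held 9 of the 9 genes above their own means. Over the 15 libraries, r with the standardised mean of the members was -0.11 for Sall1 and -0.05 for Igf1.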
